A study of Mus musculus with 224 samples.

Results

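Transcript levels in the central amygdala (CeA) were compared between CIE Drinking and Air Drinking mice, that is, between mice that drank ethanol and had inhaled ethanol vapor and mice that drank ethanol and had inhaled air. Arrays were chosen by their labels alone (CeA and ethanol drinker), which gave 24 of the 224 arrays of the study, 12 CIE Drinking and 12 Air Drinking, each from a different mouse. All animals were male C57BL/6J mice bought at 10 weeks of age. CIE, chronic intermittent ethanol, was vapor for 16 h a day on 4 days of each of 4 cycles, preceded by an injection of 1.6 g/kg ethanol with 1 mmol/kg of pyrazole, which slows ethanol clearance. Air mice sat in air chambers and received saline with the same pyrazole. After 6 weeks of baseline drinking, and after 72 h of abstinence in each cycle, both groups had 2 h a day with 15% (v/v) ethanol in 2-bottle choice for 5 days. Tissue was taken on the last of these days, before access. The 11 CIE NonDrinking and 8 Air NonDrinking CeA arrays entered the same fit. Vapor and air mice of these groups had the same injections without access to ethanol. The study reports that drinking mice had been without ethanol for a shorter time than CIE NonDrinking mice when tissue was taken. It also reports that CIE Drinking mice drank more than Air Drinking mice after the last cycle of vapor. CIE Drinking and Air Drinking mice thus differed in intake as well as in vapor.

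The CeA is the main output nucleus of the amygdala. Nearly all of its neurons are GABAergic, and many carry a neuropeptide or another marker such as corticotropin-releasing factor (Crh), somatostatin (Sst), neurotensin (Nts) or protein kinase C delta (Prkcd). It is best known for fear, stress and the negative state of ethanol withdrawal. The neighboring basolateral amygdala holds glutamatergic neurons of cortical type, and the striatum lies close by as well. An array probeset is a group of short oligonucleotides that reads 1 stretch of a transcript, and a gene can have several. Levels are given on the log2 scale, so that a difference of 1 is a doubling.

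As a mean, CeA markers lay above the median probeset on all 24 arrays. Single markers could be lower, such as Nts, at 6.26 on its lowest CIE Drinking array. The mean level of 12 CeA markers lay between 8.13 and 10.22 on CIE Drinking arrays and between 8.43 and 10.34 on Air Drinking arrays, where the median probeset was at 6.86. Markers of basolateral and cortical glutamatergic neurons were measured too (10 genes, 7.36 to 9.42 on CIE Drinking arrays and 6.99 to 8.93 on Air Drinking arrays), as were those of myelin and choroid plexus. Array medians differed little, from 6.82 to 6.88 over the 43 CeA arrays, no arrays were identical, and 43969 probesets were tested. In the Air Drinking group, 8 mice are numbered 23 to 32 and 4 are numbered 58 to 62, above the numbers of every other group, which end at 56. The labels do not say what the gap in numbers stands for, and hybridization batches were not given with the arrays. These 4 arrays stood apart in the main outcome, so the counts, most named rises and several lists are also given without them. The fits with marker covariates used all arrays. In whole tissue, fewer cells of a type and less RNA per cell cannot be told apart.

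At an adjusted p of 0.01 or less by LIMMA, 78 of 43969 probesets (0.177%) were differentially expressed, of which 77 (0.175%) were higher in CIE Drinking mice and 1, a probeset of Surf2, was lower. The rises were between 1.16- and 1.92-fold, with a median of 1.43-fold. Single probesets of Syt1, Syn2, Camk2a, Ntrk3, Zmynd11, Zbtb16, Xrn2, Malat1, Rbm25 and Hsp90aa1 were among them, and pairs of probesets of Atrx, Epha4 and Peak1. In all, 58 of the 78 probesets have 1 gene symbol and stand for 55 of 17944 genes (0.307%). They are described by the role of each gene, which is no test of a theme. Of the lists of genes examined, chromatin remodelling and modification had 0 of 67 genes with a called probeset, splicing factors 1 of 38 and synaptic vesicle release 2 of 21. These lists are not complete, and some genes with called probesets and such roles lie outside them. Examples are Atrx and Zmynd11 for chromatin and Bclaf1 for splicing, so the counts hold for the listed genes alone. Nuclear long noncoding RNAs, growth factor signalling and synapse organizers had 1 of 12, 1 of 18 and 1 of 16. With the Air Drinking mice 58 to 62 left out, 0 probesets passed by LIMMA (4516 had an unadjusted p under 0.05). All 78 kept their direction, which their choice on mostly the same arrays favors. The median size of their difference was 0.34, against 0.51 with all arrays.

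For the 78 probesets the direction was the same on nearly all CIE Drinking arrays, which their choice by this difference largely fixes. Relative to the Air Drinking mean, 12 of 12 CIE Drinking arrays had the direction of the group difference for 74 of the 78 probesets, and 11 of 12 had it for the others. The groups did not overlap at all for 9 of the 78, compared with 14 of all 43969 probesets (0.0318%). The same choice favors a higher share among the 78, so these counts are a description. Genes of these 9, singled out after their values were seen, were Taok1, a kinase of the stress pathway, Bclaf1, a transcription and splicing factor, Xrn2, Acbd3, a Golgi protein, Atrx (both probesets) and Kif3b, a kinesin motor. The remaining 2 had no single gene symbol. Among all probesets, differences were centred at -0.01 and 46.8% were above 0.

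**Figure D1:**
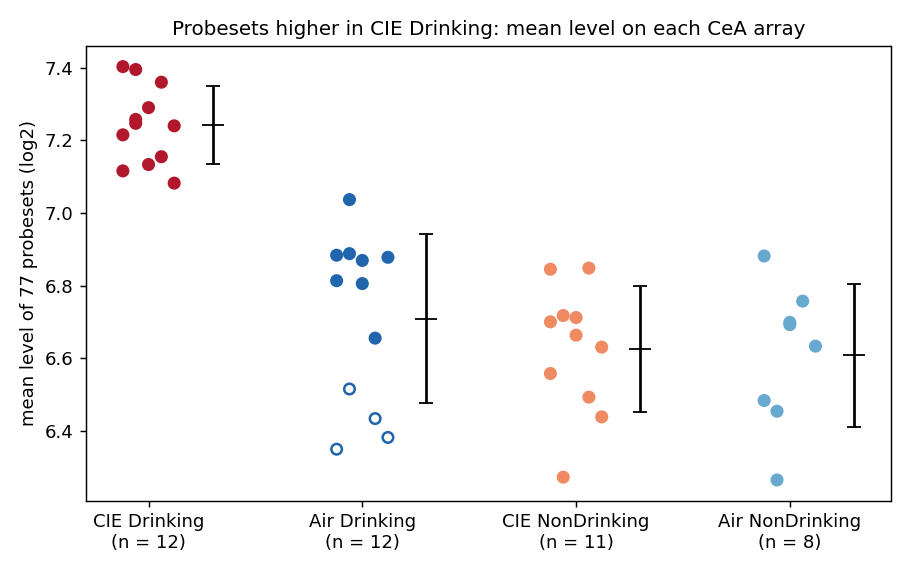
Mean level (log2) of the 77 probesets that were higher in CIE Drinking mice, for each of the 43 CeA arrays, by group. Bars are the group mean with its SD, and open circles are the Air Drinking mice 58 to 62. The 12 CIE Drinking arrays lie between 7.08 and 7.40, above all Air Drinking arrays (6.35 to 7.04). Since the probesets were chosen for this difference, the separation of the first 2 groups is a description.

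Of the named rises, several were in synaptic proteins. Syt1 encodes synaptotagmin 1, the calcium sensor of vesicle release, and its probeset was at 9.19, 9.62 and 10.19 (lowest, median and highest array) in CIE Drinking mice, against 8.34, 8.90 and 9.42 in Air Drinking mice. The ranges overlap, with 9 of 12 CIE Drinking arrays above every Air Drinking array. The log2 fold change was 0.80 (SE 0.15, adjusted p = 0.00469). Syn2, synapsin 2, which tethers vesicles, was at 9.64, 10.25 and 10.81 in CIE Drinking mice and at 8.78, 9.50 and 10.04 in Air Drinking mice, which is 0.80 higher (SE 0.16, adjusted p = 0.00774). A Camk2a probeset, for the alpha subunit of the kinase of glutamatergic spines, was at 7.19, 7.78 and 8.36 in CIE Drinking mice and 6.38, 7.17 and 7.70 in Air Drinking mice (log2 fold change 0.68, SE 0.14, adjusted p = 0.00774). For Syn2 and Camk2a 8 of 12 CIE Drinking arrays lay above every Air Drinking array. Camk2a also differed from most of the other genes in its Air Drinking arrays, which averaged 7.06 in mice 58 to 62 and 7.07 in mice 23 to 32, where Syn2 averaged 9.02 and 9.58. Against the mice 23 to 32 alone the difference was 0.64 for Syt1 (adjusted p = 0.24), 0.62 for Syn2 (0.295) and 0.68 for Camk2a (0.239).

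Probesets of 2 receptors, Epha4 and Ntrk3, and of Peak1 rose by similar amounts. Epha4, an ephrin receptor of synapses and of their astrocytic neighbors, passed with 2 of its 5 probesets. The first was at 8.81, 9.30 and 9.85 in CIE Drinking mice and at 7.84, 8.51 and 8.90 in Air Drinking mice (log2 fold change 0.79, SE 0.14, adjusted p = 0.00288), and the other rose by 0.66 (adjusted p = 0.00526). A probeset of Ntrk3, the receptor of neurotrophin 3, was at 6.77, 7.77 and 8.05 in CIE Drinking mice and at 6.14, 6.95 and 7.58 in Air Drinking mice, which is 0.83 higher (SE 0.17, adjusted p = 0.00791). Peak1, a pseudokinase of the actin cytoskeleton, also passed with 2 probesets, by 0.89 (SE 0.14, adjusted p = 0.00223) and 0.61 (SE 0.12, adjusted p = 0.00616). Its stronger probeset was at 6.25, 7.05 and 7.32 in CIE Drinking mice, against 5.48, 6.10 and 6.79 in Air Drinking mice. Against the mice 23 to 32 alone the difference was 0.64 for Epha4 (adjusted p = 0.239), 0.62 for Ntrk3 (0.295) and 0.66 for Peak1 (0.227).

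The largest log2 fold change among the 78 was that of Atrx. This gene, a chromatin remodeller of heterochromatin, was at 8.29, 8.52 and 8.84 in CIE Drinking mice, against 6.68, 7.90 and 8.27 in Air Drinking mice, without overlap, and its log2 fold changes were 0.91 (SE 0.18, adjusted p = 0.00633) and, for a second probeset, 0.94 (SE 0.18, adjusted p = 0.00664). The 4 arrays from 58 to 62 were the lowest for the first of these. Zmynd11, a reader of histone H3.3, shared the smallest adjusted p (0.00223) with Peak1 and Megf9 and was at 7.99, 8.17 and 8.25 in CIE Drinking mice and 7.27, 7.71 and 8.01 in Air Drinking mice (log2 fold change 0.45, SE 0.07). It was singled out after its value was seen. Xrn2, a nuclear exonuclease, was at 8.71, 8.99 and 9.19 in CIE Drinking mice and 7.67, 8.50 and 8.69 in Air Drinking mice, which is 0.66 higher (SE 0.12, adjusted p = 0.00309). Malat1, a nuclear noncoding RNA, rose by 0.61 (SE 0.12, adjusted p = 0.0065) in 1 of 7 probesets. A probeset of the splicing factor Rbm25 rose by 0.22 (SE 0.04, adjusted p = 0.00774), the smallest of the called rises. These values leaned on the mice 58 to 62: against the mice 23 to 32 alone the difference was 0.53 for Atrx (adjusted p = 0.295), 0.41 for Xrn2 (0.24), 0.40 for Malat1 (0.295) and 0.15 for Rbm25 (0.295).

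Zbtb16 is a zinc finger repressor that glucocorticoids induce, and Hsp90aa1 is the inducible form of the chaperone that holds steroid receptors. The Zbtb16 probeset was at 6.23, 6.71 and 7.17 in CIE Drinking mice and at 5.98, 6.14 and 6.68 in Air Drinking mice (log2 fold change 0.55, SE 0.10, adjusted p = 0.00309). That of Hsp90aa1 was at 12.24, 12.33 and 12.54 in CIE Drinking mice and at 11.65, 12.05 and 12.32 in Air Drinking mice (log2 fold change 0.34, SE 0.06, adjusted p = 0.00444). Against the mice 23 to 32 alone the difference was 0.49 for Zbtb16 (adjusted p = 0.236) and 0.21 for Hsp90aa1 (0.24). Each is the 1 gene with a called probeset on its list, of 15 glucocorticoid-responsive genes and of 22 heat shock and ER stress genes. The share of all genes with a called probeset was 0.307%, and single members are no test of a theme. By the brightest probeset of each gene these lists had median log2 fold changes of 0.01 and 0.03, where that over 17944 genes was -0.02.

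**Figure D2:**
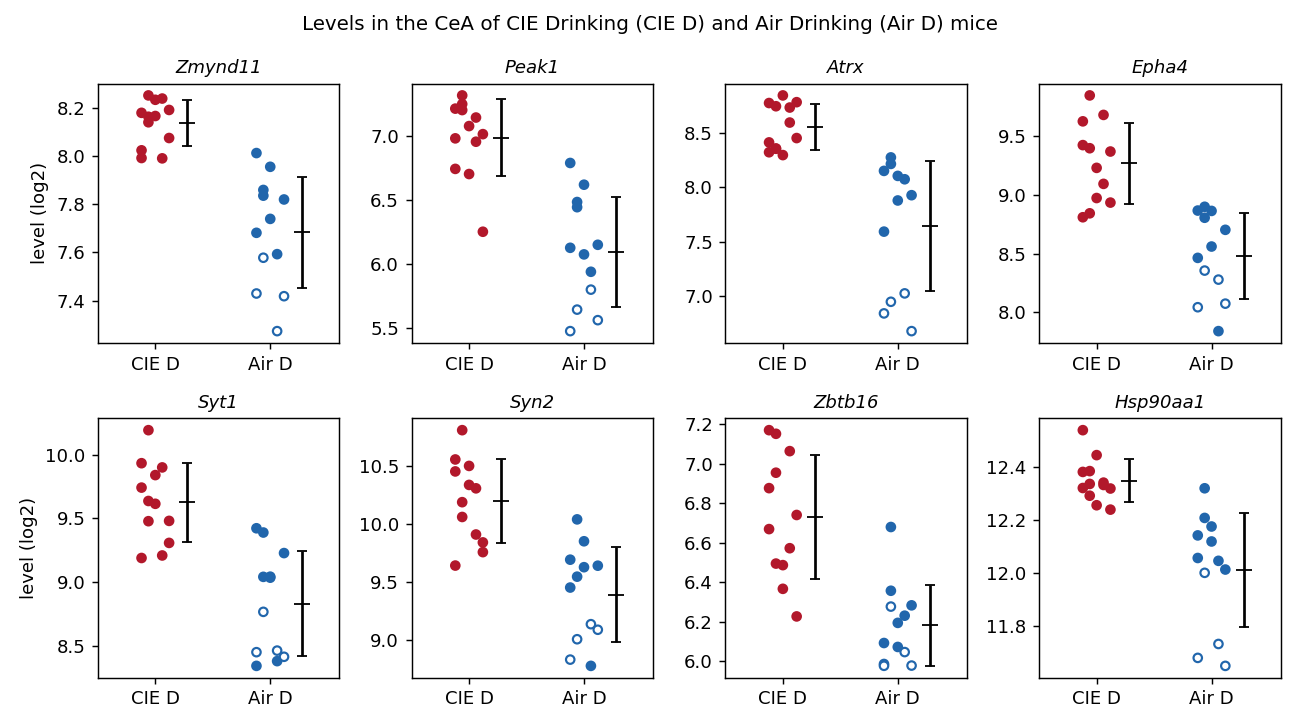
Level (log2) of 1 called probeset of 8 genes on each CeA array of CIE Drinking (CIE D, left) and Air Drinking (Air D, right) mice, with group mean and SD, and with Air Drinking mice 58 to 62 as open circles. The vertical axes do not start at 0 and differ between genes. The open circles are among the lowest Air Drinking arrays of most genes, such as Atrx.

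Among called probesets, the 15 largest rises by gene also held Herc1 (0.74), a giant ubiquitin ligase, Ildr2 (0.74), a membrane protein, Prrc2c (0.69), a stress granule protein, Vps13a (0.68), a lipid transfer protein, Megf9 (0.65), Fam13c (0.64) and Efr3a (0.63), a plasma membrane scaffold. Zbtb38 rose by 0.31 and Zfp770 by 0.44, and with Zbtb16 they made 3 of 388 zinc finger genes with a called probeset, beside 0.307% of all genes. Without the mice 58 to 62 these rises of Herc1, Ildr2, Prrc2c and Vps13a were 0.53, 0.49, 0.36 and 0.47, and none passed. The brightest probesets of the zinc finger family were centred below 0 (median -0.06, 90 of 388 above 0), with 75 lower and 12 higher at an unadjusted p under 0.05. Of the 78 called probesets, 20 have no single symbol and are not described by gene. Surf2, a nucleolar protein, was the only fall among the 78. It was at 5.31, 5.39 and 5.63 in CIE Drinking mice and at 5.50, 5.64 and 5.85 in Air Drinking mice (log2 fold change -0.21, SE 0.04, adjusted p = 0.00889).

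The called probesets were seldom the main probeset of their gene. All 55 genes had at least 2 probesets, and 56 of the 58 called probesets with a symbol were not the brightest of their gene, where 64.9% of the 25215 probesets of genes with several are not. Called probesets had a median mean level of 6.74, while the brightest probesets of the same genes were at 10.38. Tested by the brightest probeset, 2 of 17944 genes (0.0111%) passed, Usp46os2 (0.22) and Zbed6 (0.51), named here for that reason. The brightest probesets of the 55 genes had a median log2 fold change of 0.03, 36 were above 0 and 4 were above 0.3. When the probesets of each gene were averaged first, 0 of 17944 genes passed by LIMMA, and 2574 had an unadjusted p under 0.05.

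The gap was wide for some genes. The brightest Atrx probeset, at 11.71 in CIE Drinking mice and 11.65 in Air Drinking mice, differed by 0.06 (SE 0.03, adjusted p = 0.372), and that of Syt1, at 13.00 in CIE Drinking mice and 12.90 in Air Drinking mice, by 0.10 (SE 0.06, adjusted p = 0.44). The brightest Ntrk3 probeset differed by 0.05. The other probesets of Zmynd11 differed by 0.052, -0.0071 and 0.0040, and those of Xrn2 by -0.0064 and -0.015. For Syn2 the brightest differed by 0.20 and the next by 0.44 (adjusted p = 0.0296). Probesets of Rbm25 conflicted: the brightest differed by 0.03 (adjusted p = 0.856) and another by -0.13 (SE 0.04, adjusted p = 0.0473). The rest of its uncalled probesets lay between 0.01 and 0.26. Malat1 was split, with 4 further probesets between 0.34 and 0.77 and 2 at 0.05 and -0.02. Over the 162 other probesets of the 55 genes, 113 differences were above 0, with a median of 0.05 and a range of -0.19 to 0.80. What the called probesets have in common beyond their genes, such as their place in the transcript, was not tested.

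**Figure D3:**
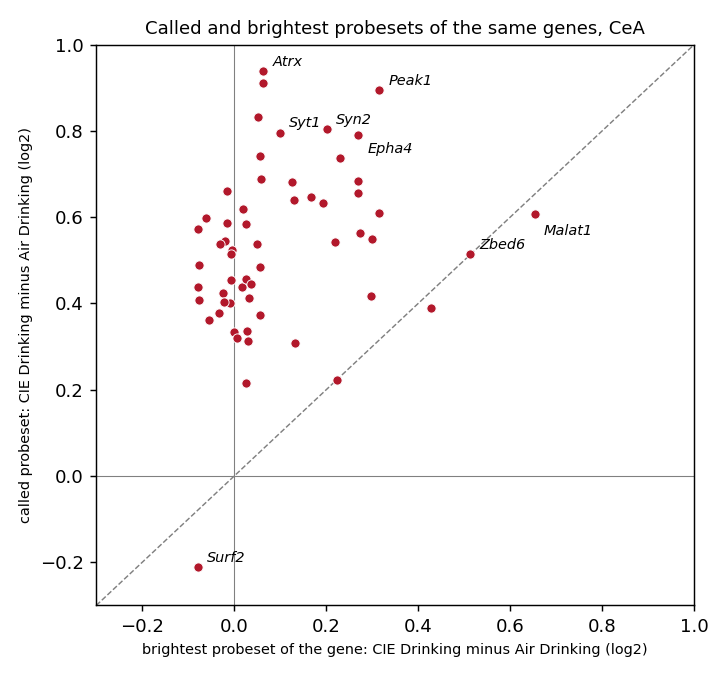
Difference between CIE Drinking and Air Drinking mice (log2) of each called probeset with a gene symbol, against that of the brightest probeset of the same gene, with the line of equality dashed. Most points lie far above the line, as for Atrx and Syt1. Zbed6 and Usp46os2 lie on it, since their called probesets are their brightest, and Malat1 lies just below it. Surf2, the only fall, is the single point below 0.

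The called probesets also varied together from mouse to mouse. After the 4 group means had been removed, the median correlation between 2 of the 77 was 0.51 over the 43 arrays, and 98.2% of 2926 pairs were above 0. For the 162 other probesets of the same genes the median was 0.07. The gap between Air Drinking mice of low and high number is part of these residuals: without the mice 58 to 62 the medians over 39 arrays were 0.41 (96.8% of pairs above 0) and 0.08. The arrays share normalization and batch adjustment, and the values are a description.

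By position, the 55 genes were long. Their median span in the RefSeq annotation (GRCm38.p6) was 63.5 kb, from 3.82 to 513.3 kb, against 20.3 kb for 17898 measured genes and 30.0 kb for 8840 genes with several probesets, and 42 of the 55 were over the latter median. Promoters of 300 bases, from 250 before to 50 after the start, were at hand for 44 of the 55. The GC box GGGCGG, on either strand, was in 75% of these, against 54.6% of 14247 promoters of measured genes, while TATAAA was in 2 of 44 (4.55%, against 9.62%) and the cAMP response element TGACGTCA in 0 (against 2.69%). Median GC content was 62.7% in the promoters of called genes, against 58.7% in those of measured genes. Unlike gene span, the promoter values were not set against those of genes with several probesets. The promoters of Epha4 (chr1:77515039-77515338, minus strand) and Peak1 (chr9:56418001-56418300, minus strand), genes with 2 called probesets each, are shown from RefSeq to illustrate this letter content, with GC boxes in capitals. Atrx also has 2 called probesets but is not among the genes whose promoter held a GC box. A match is a description of letters and not a binding site.
Epha4: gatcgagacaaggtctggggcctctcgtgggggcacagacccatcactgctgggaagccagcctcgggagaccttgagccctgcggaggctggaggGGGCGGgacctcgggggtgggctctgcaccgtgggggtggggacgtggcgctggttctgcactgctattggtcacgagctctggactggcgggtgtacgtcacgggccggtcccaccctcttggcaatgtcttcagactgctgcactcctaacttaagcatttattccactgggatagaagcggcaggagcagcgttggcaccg
Peak1: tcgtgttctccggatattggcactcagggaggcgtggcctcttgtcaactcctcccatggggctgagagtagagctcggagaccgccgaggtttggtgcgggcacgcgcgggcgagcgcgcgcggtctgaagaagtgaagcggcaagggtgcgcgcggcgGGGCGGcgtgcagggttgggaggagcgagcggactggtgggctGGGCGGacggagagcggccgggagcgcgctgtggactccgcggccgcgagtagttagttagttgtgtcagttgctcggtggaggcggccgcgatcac

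The lists of cell types and functions were read by the brightest probeset of each gene, and 0 members of any list passed an adjusted p of 0.01 this way, where 2 of all 17944 genes (0.0111%) did. CeA neuron markers had lower values in CIE Drinking mice: 0 of 12 differences were above 0, 7 had an unadjusted p under 0.05, and the median log2 fold change was -0.72, against -0.02 over 17944 genes. Tac2, the neurokinin B precursor, was at 7.05, 8.06 and 11.01 in CIE Drinking mice and at 7.50, 10.55 and 11.60 in Air Drinking mice (log2 fold change -1.53, SE 0.54, adjusted p = 0.144). Nts was at 6.26, 8.76 and 11.02 in CIE Drinking mice and at 8.14, 10.49 and 11.11 in Air Drinking mice (-1.23, SE 0.55, adjusted p = 0.265). Both spread over several log2 units within a group, so that a large mean difference missed the threshold. Crh differed by -0.74 (SE 0.33, adjusted p = 0.276), Prkcd by -0.49 (SE 0.26, adjusted p = 0.353) and Sst by -0.33 (SE 0.15, adjusted p = 0.275). Without the mice 58 to 62 the list's median was -0.61, with 0 of 12 above 0.

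Opioid peptides and their receptors had the same sign, with 0 of 8 above 0 and a median of -0.46. Pnoc, the nociceptin precursor, differed by -0.70 (SE 0.22, adjusted p = 0.101), Pdyn, prodynorphin, by -1.11 (adjusted p = 0.229), Penk, proenkephalin, by -0.94 (adjusted p = 0.227) and Oprm1, the mu receptor, by -0.43 (adjusted p = 0.185). The peptide genes stand on the CeA marker list as well. GABAergic markers were closer to 0 (2 of 11 above 0, median -0.12), with -0.56 for Gad2 (adjusted p = 0.109) and -0.60 for Slc32a1 (adjusted p = 0.109), the transporter that fills vesicles with GABA. Of the 10 striatal markers 0 were above 0 (median -0.37), as were 0 of 14 markers of myelin (median -0.34). At an unadjusted p under 0.05, 2 of the striatal and 0 of the myelin markers were lower.

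Markers of basolateral and cortical glutamatergic neurons ran the other way. Of 10, 9 were above 0 and 7 had an unadjusted p under 0.05, with a median of 0.67, although 0 passed. Rspo2, a Wnt agonist of the basolateral amygdala, was at 7.31, 9.42 and 10.33 in CIE Drinking mice and at 6.86, 8.19 and 9.30 in Air Drinking mice (log2 fold change 1.06, SE 0.32, adjusted p = 0.0836). Slc17a7, the vesicular glutamate transporter of such neurons, was at 6.28, 8.25 and 8.95 in CIE Drinking mice and at 6.21, 7.30 and 8.25 in Air Drinking mice (0.80, SE 0.26, adjusted p = 0.118). Neurod6 differed by 1.38 (adjusted p = 0.2). The list's median was 0.83 without the mice 58 to 62, with 9 of 10 above 0. Of 13 choroid plexus, ependymal and meningeal markers, 13 were above 0 (median 0.28), but only 1 had an unadjusted p under 0.05. Their array means spread widely, at 10.14 (SD 1.05) in CIE Drinking mice and 9.86 (SD 1.07) in Air Drinking mice. Between the nondrinking vapor and air groups the list's median was 0.63. Astrocyte, endothelial and microglial markers were closer to 0 (medians of -0.10, -0.06 and -0.15).

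These marker levels moved with the group and thus stand beside every rise above, of which some, such as Camk2a and Syn2, are in neuronal genes. With the array mean of the glutamatergic markers as a covariate, 4 probesets passed, 3 of them among the 78. With the mean of the CeA markers 2 passed, and with both 0 passed (4003 had an unadjusted p under 0.05). All 78 kept their direction in each of these fits, which their choice on the same arrays favors. Their median size was 0.49, 0.47 and 0.47, against 0.51 without a covariate. Marker levels of Air Drinking mice of low and high number overlapped, with both ends of each range higher in mice 58 to 62. Relative to the mean of the 43 arrays, the glutamatergic list was between -0.45 and 0.39 in mice 58 to 62 and between -1.55 and 0.29 in mice 23 to 32. The CeA list was between 0.23 and 1.01 in mice 58 to 62 and between -0.90 and 0.71 in mice 23 to 32. The part of dissection in the result was not tested.

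**Figure D4:**
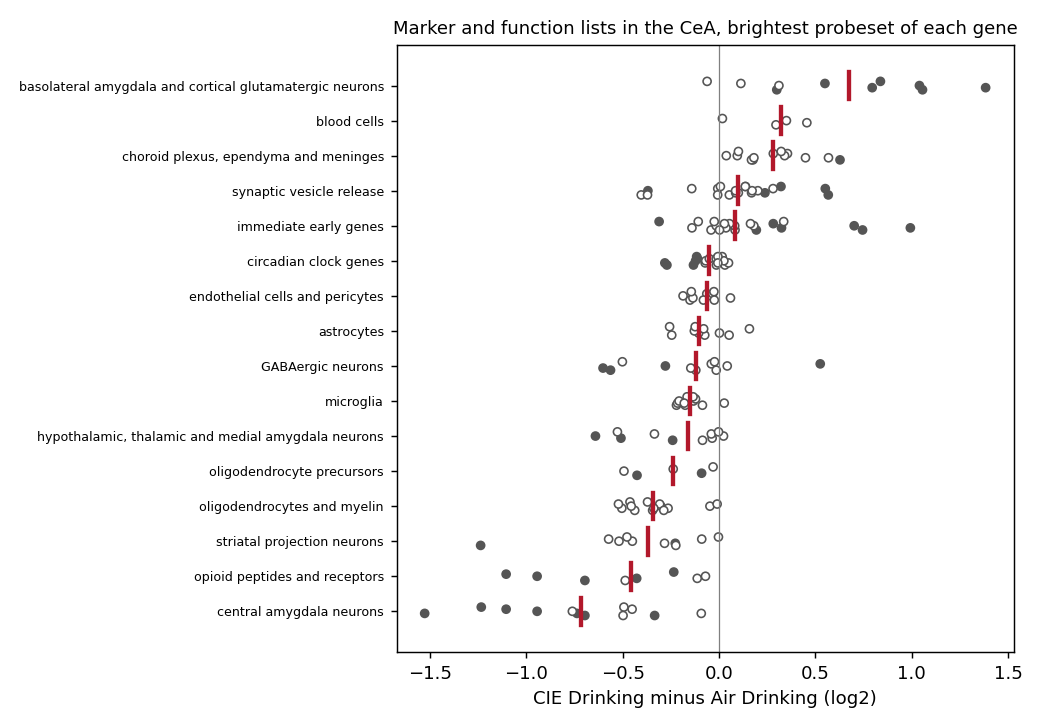
Difference between CIE Drinking and Air Drinking mice (log2) of each gene of 12 marker lists and 4 function lists, by its brightest probeset, with the list's median in red. Filled points had an unadjusted p under 0.05, and none passed after adjustment. CeA neuron markers lie lowest (median -0.72) and basolateral and cortical glutamatergic markers highest (median 0.67).

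Activity-dependent genes were mixed. Of 21 immediate early genes 15 were above 0 (median 0.08), with 6 higher and 1 lower at an unadjusted p under 0.05 and 0 called. Bdnf, a neurotrophin that activity induces, was at 6.18, 8.50 and 9.52 in CIE Drinking mice and at 5.54, 7.84 and 8.72 in Air Drinking mice (log2 fold change 0.99, SE 0.36, adjusted p = 0.158), and Nr4a3 differed by 0.75 (SE 0.25, adjusted p = 0.126). Fos differed by -0.31 (adjusted p = 0.284). Circadian clock genes had 6 of 17 lower and 0 higher at an unadjusted p under 0.05, as for Cry1 (-0.27, adjusted p = 0.0897). The median of the 17 was -0.05. The medians of the immediate early and clock genes were 0.09 and -0.04 without the mice 58 to 62. The CRF system was split, with Crhbp, the CRF binding protein, at 0.61 (adjusted p = 0.15) and Nr3c1, the glucocorticoid receptor, at -0.19 (adjusted p = 0.252).

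Synaptic lists held several genes near the threshold. Of 34 glutamate receptor and scaffold genes 20 were above 0 (median 0.09), and Dlgap2, a postsynaptic scaffold, was at 8.03, 8.48 and 8.95 in CIE Drinking mice and at 7.01, 7.91 and 8.54 in Air Drinking mice (log2 fold change 0.71, SE 0.15, adjusted p = 0.0109). Of 21 vesicle release genes 15 were above 0 (median 0.10), led by Cplx2, complexin 2, at 0.57 (SE 0.13, adjusted p = 0.0206). By any probeset 2 of these 21 genes, Syt1 and Syn2, were called, beside 0.307% of all genes. Crebbp, a histone acetyltransferase, differed by 0.41 (SE 0.09, adjusted p = 0.0166) and the splicing factor Srrm2 by 0.24 (SE 0.06, adjusted p = 0.0395), but their lists were centred at -0.05 (20 of 67 chromatin genes above 0) and -0.02 (12 of 38 splicing genes above 0). Without the mice 58 to 62 Dlgap2 differed by 0.50, Cplx2 by 0.53, Crebbp by 0.25 and Srrm2 by 0.13, with adjusted p of 0.295 or more.

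Genes that the study names for 2 CeA coexpression modules were chosen on these samples and are not independent evidence. Of the synaptic genes of the blue module, Kcnma1, a calcium-activated potassium channel, differed by 0.29 (adjusted p = 0.122), Grin2b by 0.32 (adjusted p = 0.178) and Gria4 by -0.34 (adjusted p = 0.225), both glutamate receptor subunits, while Cacnb4 and Cacna1a were at -0.15 and 0.01. Of 8 chromatin genes of the green module, 3 were above 0 (median -0.02). Ctcf, an organizer of chromatin loops, differed by 0.20 (adjusted p = 0.225) and Bcor, a corepressor, by -0.19 (adjusted p = 0.167). None of the 13 passed.

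In mice that did not drink, the vapor and air groups showed no such pattern at this threshold. CIE NonDrinking mice had been without ethanol for longer than drinking mice, and the part of that time was not tested. Between CIE NonDrinking and Air NonDrinking mice 0 probesets (0.0%) passed in the CeA by LIMMA (4019 had an unadjusted p under 0.05), and of the 77 that were higher in CIE Drinking mice 43 were above 0, with a median of 0.01. The mean level of the 77 was 7.24 ± 0.11 in CIE Drinking mice (SD, n = 12), 6.71 ± 0.23 in Air Drinking mice (n = 12), 6.63 ± 0.17 in CIE NonDrinking mice (n = 11) and 6.61 ± 0.20 in Air NonDrinking mice (n = 8). The Air Drinking mice 58 to 62, with 6.35 to 6.52, lay within the range of the nondrinking groups, and mice 23 to 32, with 6.66 to 7.04, reached above it. CIE Drinking mice had the highest of the 4 group means in 77 of 77, which the choice of probesets partly fixes.

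The interaction compares the vapor difference of drinking mice with that of nondrinking mice, so it also holds differences in intake and time since ethanol. It was tested and gave 0 probesets (0.0%) by LIMMA, with a smallest adjusted p of 0.0644 and 4897 at an unadjusted p under 0.05. For the 77, which were chosen on the drinking side of this contrast, it lay between 0.17 and 1.02. Without the mice 58 to 62 the interaction gave 0 probesets by LIMMA (smallest adjusted p 0.0396, 5001 at an unadjusted p under 0.05) and lay between 0.01 and 0.91 for the 77. Air Drinking and Air NonDrinking mice differed in 0 probesets (0.0%) by LIMMA, with 2519 at an unadjusted p under 0.05, and 59 of the 77 were above 0 in that comparison, with a median of 0.11. Without the mice 58 to 62, 205 probesets (0.466%) passed, 202 of them higher in Air Drinking mice. They included 8 of the 77, and 69 of the 77 were then above 0 (median 0.28). The comparison shares the Air Drinking arrays with the main comparison.

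The same comparison in the other regions called 419 of 44429 probesets (0.943%) in the bed nucleus of the stria terminalis (BNST), 127 (0.282%) in the nucleus accumbens (NAC), 549 (1.23%) in the hippocampus (HPC) and 840 (1.87%) in the prefrontal cortex (PFC). Most mice gave several regions: 22, 21, 20 and 20 of the 24 mice also had an array in the BNST, NAC, HPC and PFC, so that regions are not independent samples. Of the 78 CeA probesets, 77 had a higher value in CIE Drinking mice in the HPC (median log2 fold change 0.41, 34 called in the same direction), 69 of 77 in the BNST (0.34, 19 called) and 71 in the NAC (0.30, 4 called). In the PFC 38 of 78 were higher (median -0.01), 0 were called in the same direction and 1, Edrf1, a factor of red cell development, was called lower (-0.32, adjusted p = 0.0081).

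**Figure D5:**
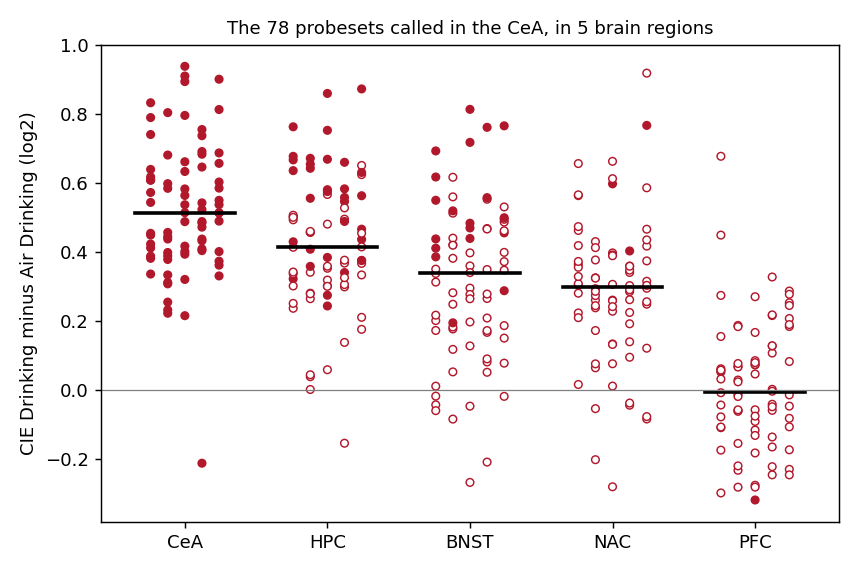
Difference between CIE Drinking and Air Drinking mice (log2) of the 78 probesets called in the CeA, in the CeA and 4 other regions, with medians as black lines and filled points for those past an adjusted p of 0.01 in that region. The CeA values chose the probesets. Medians are 0.41 in the HPC, 0.34 in the BNST, 0.30 in the NAC and -0.01 in the PFC.

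Mice with the higher numbers stood apart in these regions as well. In the CeA the 4 mice 58 to 62 had a lower mean than the mice 23 to 32 for 75 of the 77 probesets (median gap 0.42), all but Aldh1a3 and Usp46os2. In the HPC the Air Drinking mice numbered 57 to 62 were lower for 75 of 77 (median gap 0.74), in the BNST for 74 of 76 (0.50) and in the NAC for 77 of 77 (0.54), but in the PFC for 8 of 77 (-0.10). Without them 0 probesets passed by LIMMA in the HPC, 0 in the BNST, 0 in the NAC and 181 in the PFC, where 3331, 5166, 5468 and 6995 had an unadjusted p under 0.05. The 77 CeA probesets were then centred at 0.34 in the CeA (77 above 0), 0.08 in the HPC (62 above 0), 0.14 in the BNST (62 of 76), 0.06 in the NAC (59) and 0.07 in the PFC (47). The CeA arrays, most of which remained in this fit, had chosen these probesets. The CeA value is therefore not on equal terms with those of the other regions. The numbers are those of the mice, vapor and drinking being the same by the labels, and what else sets these mice apart was not tested.

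Differences between regions were tested in 1 fit. The response of CIE Drinking against Air Drinking mice differed between CeA and BNST in 913 of 43893 probesets (2.08%), between CeA and NAC in 902 (2.05%) and between CeA and HPC in 28 (0.0638%). Of the 77 CeA probesets tested, 5, 3 and 0 were among them, all with a larger value in the CeA, where the choice of probesets favors that direction. Camk2a differed by 0.68 in the CeA and -0.27 in the BNST, a difference of 0.95 (adjusted p = 0.000106, and 9.2e-05 with mouse number as a block). The second Peak1 probeset differed by 0.61 in the CeA and -0.02 in the BNST, a difference of 0.63 (adjusted p = 0.0013). These 2 also passed without the mice 57 to 62, by 1.00 (adjusted p = 0.00107) and 0.75 (adjusted p = 0.00115).

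Against the NAC, Zbtb16 differed by 0.55 in the CeA and -0.08 in the NAC (difference 0.63, adjusted p = 0.000748, and 0.00661 without the mice 57 to 62). Aldh1a3, a retinoic acid synthesizing enzyme, differed by 0.31 in the CeA and -0.20 in the NAC (difference 0.51, adjusted p = 4.1e-05, and 0.000433 without these mice). Efr3a differed by 0.63 in the CeA and -0.28 in the NAC (difference 0.91, adjusted p = 0.00338), and lost its call without these mice (0.91, adjusted p = 0.0169).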

How the data were processed

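RNA of dissected CeA was hybridized by the authors to Affymetrix whole-genome mouse arrays, 1 array per mouse. The deposited log2 values had been summarized by RMA, quantile normalized within a region and adjusted for hybridization batch with ComBat by the authors. Batch adjustment can move values of groups that are uneven between batches. Groups and mouse numbers came from sample titles, and 0 columns were left unmapped.

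Probesets were named through the platform annotation (34945 of 45037 have 1 symbol, 9160 none), checked against RefSeq GRCm38.p6. A model with 1 mean per group over the 43 CeA arrays was fitted with limma 3.58.1 (R 4.3.3) with Benjamini-Hochberg adjustment at 0.01. On simulated data it found 21 of 50 changes of 0.25, 40 of 50 of 0.5 and 48 of 50 of 1, and called 4 unchanged probesets. The simulated noise was independent between probesets and held no subgroup of mice, unlike the arrays, so these rates need not hold here. Region differences were fitted over all 5 regions, also with mouse number as a random block (statmod 1.5.0), where same-numbered arrays are 1 mouse by the labels. The consensus correlation was 0.0146. Named genes were the 15 largest rises and falls with 1 symbol among called probesets, called list members, the 2 members of a list with the smallest adjusted p, and the markers and module genes given. Penk, Pdyn, Neurod6, Fos, Nr3c1, Zmynd11, Taok1, Bclaf1, Acbd3, Kif3b, Usp46os2, Zbed6, Aldh1a3 and Edrf1 were named outside this rule, with their values seen. Members and lists were chosen with earlier results of these data known. Alternatives were the fit, filter, weights, normalization, threshold and arrays left out. Covariates, and leaving out mice in other regions and in the interaction and drinking comparisons, were added after values had been seen. Figures used matplotlib 3.10.9.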

Additional observations from a re-analysis of the deposited data

Results flagged for a closer look

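The vapor response of drinking mice differed between regions, by a test of the difference itself, for 8 of the probesets called in the CeA. Against the BNST the difference in log2 fold change was 0.95 for Camk2a and 0.63 for Peak1, and 0.28, 1.02 and 0.57 for 3 probesets without a single symbol. Against the NAC it was 0.63 for Zbtb16, 0.91 for Efr3a and 0.51 for Aldh1a3. Without the Air Drinking mice 57 to 62, Efr3a (0.91, adjusted p = 0.0169) and 2 of the probesets without a symbol against the BNST (0.27, adjusted p = 0.0166, and 1.08, adjusted p = 0.011) no longer passed, and the other 5 did.

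Among 58 called probesets with a symbol, 4 had 1 Air NonDrinking array far from the other 7 of that group, where chance gives such an array in about 1 of 20 groups. Both Peak1 probesets had a low array, at 5.30 (others 6.00 to 6.43) and 6.96 (others 7.45 to 7.84), and Rsrc2 had one at 7.44 (others 7.94 to 8.30). Malat1 had a high array at 7.85 (others 6.88 to 7.21).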

How the results depend on the processing

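The 78 called probesets kept their direction in every alternative in which they were tested, which their choice on mostly the same arrays largely fixes. Their number depended on the arrays and the fit. It was 11 when the model held the drinking groups alone, 30 of 21985 with dim probesets left out, 347 with array quality weights (289 higher and 58 lower), 492 at an adjusted p of 0.05, 0 without the Air Drinking mice 58 to 62 and 991 without the mice 23 to 32. With the glutamatergic marker mean, the CeA marker mean or both as covariates it was 4, 2 and 0. Trend and robust variances gave 78 and renewed quantile normalization 81. Leaving out 1 array in turn gave between 22 and 140. It gave 22 to 29 without Air Drinking mouse 58, 59, 60 or 62, and 24, 48, 33, 41, 27 and 31 without CIE Drinking mice 1, 2, 3, 9, 12 and 21, while 140 passed without Air Drinking mouse 24. The count was 50 without Air Drinking mouse 27. Averaging the probesets of each gene called 0 genes, against 55 by any probeset. The interaction was 8 with array quality weights and 0 otherwise. Air Drinking against Air NonDrinking gave 0 with all arrays and 205 without the mice 58 to 62. Of the region differences, those of CeA and BNST became 258 and those of CeA and NAC 411 without the mice 57 to 62, and those of CeA and HPC 8 with dim probesets left out. With the mouse number as a replicate block they were 984, 950 and 36, against 913, 902 and 28, and no call of a probeset of the 78 was lost. Among named genes past no threshold, Cacna1a was at -0.0212 with array quality weights and Smarcc1 at -0.0109 without mice 58 to 62, each opposite to its value with all arrays. The cause of these changes was not tested. Group sizes of 12 limit precision to a median SE of 0.06 (log2).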
